A study of Mus musculus with 7 samples.

Results

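Nucleoporins, nuclear transport receptors and the genes of the Ran cycle were compared between oocytes with and without Mfn1, the gene of the outer mitochondrial membrane fusion protein mitofusin 1. Members were chosen by gene symbol alone: names beginning Nup, Nupl, Kpna or Kpnb with a number, Ipo, Xpo, Tnpo and Ranbp genes, and Ran, Rangap1, Pom121, Ndc1, Tpr and Rcc1. The rule itself used no measured value, though members were chosen with earlier results of these data known. It found 58 of the 22877 genes listed. Of these, 27 were nucleoporins, 19 import receptors, 5 export receptors, 5 genes of the Ran cycle and 2 Ran-binding scaffold genes, Ranbp9 and Ranbp10.

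Nuclear pores are large channels through the nuclear envelope, built from many copies of each nucleoporin. Importins carry proteins with a nuclear localization signal inward and exportins carry cargo outward, and the small GTPase Ran sets the direction because its GTP-bound form prevails in the nucleus, where it releases import cargo and holds export cargo. A growing oocyte stores transcripts and proteins for the embryo, whose first divisions rely on maternal transport factors, and it has a very large nucleus, the germinal vesicle.

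RNA was measured in oocytes taken from secondary follicles of C57BL/6J females aged 8 weeks, with 5 oocytes pooled in each library. The Mfn1-/- (KO) group, with 3 libraries, carried floxed Mfn1 alleles and Zp3-Cre, whose zona pellucida promoter acts only in oocytes once follicles have begun to grow. The WT group had 4 libraries. Full-length cDNA was made with Smart-Seq2 and sequenced as read pairs of 75 bases. The deposited table gives 1 mean of normalized counts per genotype and gene, so every level below is the authors' mean, without a spread between libraries, a depth per library or a test. A difference between the genotype means is therefore a description. In such pools, a lower level in each oocyte and fewer oocytes with the transcript cannot be told apart, and whether libraries of a genotype shared a mouse is not given in the sources used here.

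Mfn1 was listed at 0.0577 in Mfn1-/- and 0.616 in WT oocytes (log2 ratio −2.18), and Mfn2, its paralog, at 0.158 and 0.105. All 16 oocyte markers were listed, with averages of the 2 means from 0.8 to 1220. Of the 12 granulosa cell markers listed, 9 had an average under 0.1, among them the defining genes Fshr, Amh and Foxl2, and the list summed to 2.4 in Mfn1-/- and 1.78 in WT, most of it Inha at 1.87 and 0.954. The list had 3 markers higher and 9 lower in Mfn1-/-, and without Inha the other 11 summed to 0.527 and 0.827. Their part in the values of transport genes was not tested. Means of all genes summed to 142576 in Mfn1-/- and 130160 in WT.

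Most transport genes were present at close to the same level in both genotypes. Ratios are given as the log2 of the Mfn1-/- mean over the WT mean after adding a pseudocount of 0.1, which draws low genes toward 0, and counts are over genes whose average of the 2 means was at least 1. That minimum kept 21 of the 58 members and 6255 genes in all. Over the 21, the log2 ratio ran from −0.49 to 0.59 with a median of 0.03, against a median of 0.16 over the 6255 genes, and 20 of the 21 lay within 1.5-fold, as did 76.6% of the genes. Of the members, 13 were higher and 8 lower in Mfn1-/-, where 65.9% of the 6255 genes were higher. Set against the median of those genes, called expressed genes below, 4 of the 21 were higher and 17 lower.

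No member passed a 2-fold difference in either direction, where 5.77% of all expressed genes were higher and 3.15% lower in Mfn1-/-. Past 1.5-fold, 1 of the 21 members was higher, Nup188, where 15.9% of genes were, and 0 were lower, where 7.48% of genes were. Without the minimum, again 0 of the 58 members were past 2-fold, beside 4.87% of the 22877 genes higher and 2.75% lower. In the same whole list, 3 members were higher past 1.5-fold (Rcc1, Nup62cl and Nup188) and 0 lower, beside 12.4% of genes higher and 6.88% lower. These shares are small numbers of members and were not tested. The whole-list counts past 1.5-fold also depend on the pseudocount. Without it, Ipo7 (ratio 1.80), Kpna1 (1.73) and Ranbp6 (1.70) were also higher past 1.5-fold, and Xpo4 (0.65) was lower. All of these averaged under 1.

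**Figure D1:**
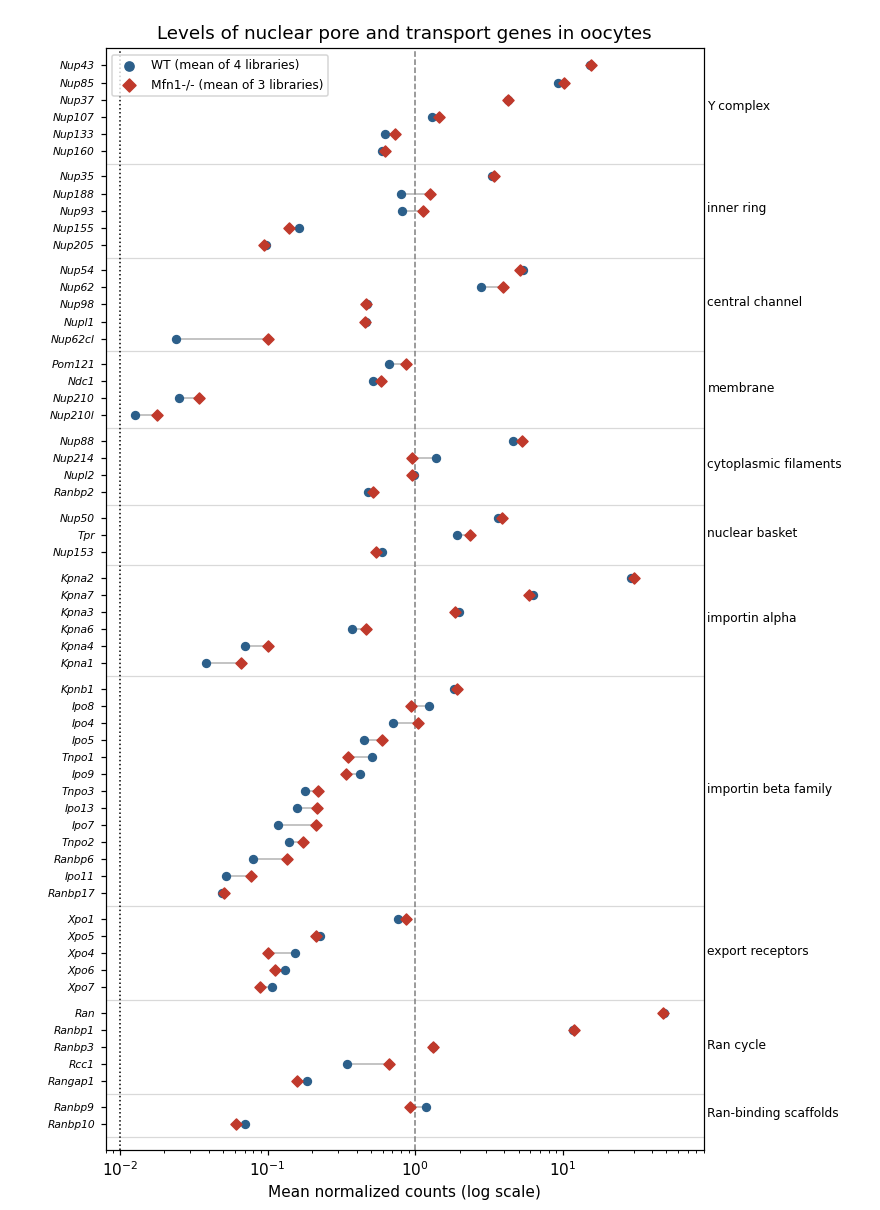
Mean normalized counts (log scale) of the 58 members in WT (blue circles, authors' mean of 4 libraries) and Mfn1-/- (red diamonds, authors' mean of 3 libraries), grouped by role; the dotted line is the lowest value listed, 0.01, and the dashed line the minimum average of 1. Levels spread far more between genes than between genotypes, from Ran at 47.3 and 47.9 to Nup210l at 0.0177 and 0.0126.

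Members differed far more from each other than between genotypes. Averages of the 2 means ran from 0.0152 for Nup210l to 47.6 for Ran, with a median of 0.558, and 10 of the 58 members averaged under 0.1. The 5 highest genes, Ran, Kpna2, Nup43, Ranbp1 and Nup85, held 66.4% of the members' summed level in Mfn1-/- and 67.3% in WT. The members summed to 173.0 in Mfn1-/- and 167.8 in WT, a ratio of 1.03, while the means of all genes had a ratio of 1.1. No member was at the lowest listed value, 0.01.

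The Y complex, or Nup107 complex, forms the outer rings of the pore and seeds new pores in the embryo and after mitosis. Nup43 was the highest nucleoporin, at 15.5 in Mfn1-/- and 15.2 in WT (log2 ratio 0.03). Nup85 was next at 10.1 and 9.27 (0.12), and Nup37 was nearly equal at 4.26 and 4.24 (0.01). These 3 transcripts stood well above the long scaffold subunits of the same complex: Nup107 was at 1.44 and 1.29, Nup133 at 0.727 and 0.624, and Nup160 at 0.628 and 0.596. All 6 genes were higher in Mfn1-/-, by log2 ratios of 0.01 to 0.19, but the 4 over the minimum, Nup43, Nup85, Nup37 and Nup107, all lay under the median of expressed genes. Sec13 (0.24) and Seh1l (0.56), subunits of the complex with names outside the rule, lay above it. Proteins of this complex are present in fixed ratios in the pore, whereas the transcript levels of the 6 members spanned 0.612 to 15.35 on average.

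The inner ring holds the pore to the membrane and anchors the channel. Nup35, also known as Nup53, was its most abundant transcript, at 3.39 in Mfn1-/- and 3.32 in WT. Nup188, a large ring scaffold (chr2:30286397-30344266 on GRCm38, plus strand), was at 1.25 and 0.798, the highest ratio among the 21 members over the minimum (log2 ratio 0.59). Relative to the median of expressed genes the ratio of Nup188 was 0.42, under 1.5-fold. Nup93, which binds Nup188 or Nup205 in the ring, was at 1.12 and 0.818 (0.41). Nup205, the structural relative of Nup188, was far lower and nearly equal between genotypes, at 0.0949 and 0.0974, and Nup155 was at 0.14 and 0.162. Nup188 shares 284 exon bases with the annotated gene Gm28038 on its own strand and 492 with Gm14471 on the other, neither of which is listed, so which transcript its reads came from cannot be told.

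In the central channel, phenylalanine-glycine repeats of Nup62, Nup54 and Nupl1 (Nup58) form the barrier that receptors pass through. These 3 proteins form 1 complex, yet their transcripts differed. Nup54 was at 5.11 in Mfn1-/- and 5.33 in WT (log2 ratio −0.06), Nup62 at 3.95 and 2.77 (0.50), and Nupl1 at 0.459 and 0.466 (−0.02). Nupl1 shares 1756 of its 3602 exon bases with the annotated gene Gm49336 on its own strand, which is not listed. Nup54 has a near-identical copy, described below, so both levels depend on how reads were assigned. Nup98, whose messenger encodes both Nup98 and the Y complex subunit Nup96, was at 0.462 and 0.468 (−0.02). Nup62cl, a relative of Nup62 on the X chromosome (chrX:140006805-140062712, minus strand), was at 0.101 and 0.0238. That is a ratio of 4.24 between 2 values near the low end of the table, and a log2 ratio of 0.70 with the pseudocount and 2.09 without it. It was the only member past 2-fold without a pseudocount.

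The transmembrane nucleoporins were low. Pom121 was at 0.868 in Mfn1-/- and 0.66 in WT, and Ndc1 at 0.585 and 0.516. Nup210 (gp210), which many cell types leave out of their pores, was at 0.0342 and 0.0252, and its testis-expressed relative Nup210l at 0.0177 and 0.0126. All 4 were higher in Mfn1-/- (median log2 ratio 0.13), and all 4 ratios lay above the median of all listed genes, 0.04. Relative to the median of expressed genes, only Pom121 was higher, at 0.19. The other 3 were lower with the pseudocount, with Ndc1 at −0.01, Nup210 at −0.06 and Nup210l at −0.10. That order depends on the pseudocount. Without it their log2 ratios were 0.18, 0.44 and 0.49, above the matching median of expressed genes, 0.17. Pom121 shares 665 exon bases with Nsun5 on the opposite strand, itself at 1.48 and 0.986.

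On the cytoplasmic side, filaments of Nup214, Nup88, Nupl2 (Nup42) and Ranbp2 (Nup358) release export complexes and remodel messenger particles. Nup214 was at 0.946 in Mfn1-/- and 1.37 in WT, with the pseudocount the lowest log2 ratio of the members, −0.49, although the plain ratios of Xpo4 and Tnpo1 were lower. Nup88, which binds Nup214 in the pore, differed in the opposite direction at 5.27 and 4.57 (0.20). Relative to the median of expressed genes Nup214 was at −0.65, past 1.5-fold, and Nup88 at 0.04. Ranbp2, the SUMO ligase of the filaments, was at 0.519 and 0.478 (0.10), and Nupl2 at 0.951 and 0.975 (−0.03).

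In the nuclear basket, Nup50, which helps release importin alpha from its cargo, was at 3.88 in Mfn1-/- and 3.63 in WT (log2 ratio 0.09). Tpr, the coiled-coil protein that forms the basket, was at 2.33 and 1.92 (0.27), and Nup153, which anchors it, at 0.54 and 0.591 (−0.11). Over all 27 nucleoporins, 19 were higher and 8 lower in Mfn1-/-, with a median log2 ratio of 0.09. Of all listed genes, 56.7% were higher. Relative to the median of expressed genes, with the pseudocount, 8 of the 27 were higher and 19 lower. Of the 12 over the minimum, 10 were higher, with a median of 0.11, where 65.9% of expressed genes were higher. Relative to the median of expressed genes, 4 of the 12 were higher and 8 lower.

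**Figure D2:**
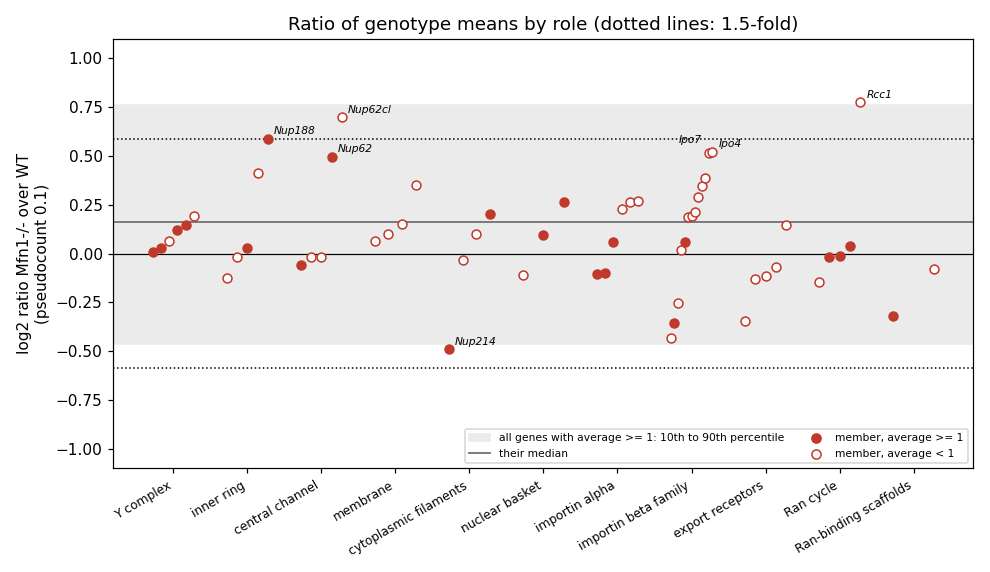
Log2 ratio of the Mfn1-/- mean over the WT mean (pseudocount 0.1) for each member, by role; filled points are members with an average of at least 1 and open points those below it. The grey band holds the 10th to 90th percentile of the 6255 expressed genes (−0.46 to 0.76), the grey line is their median of 0.16, and the dotted lines mark 1.5-fold; Nup188, Nup62cl and Rcc1 lie above the upper dotted line and no member lies below the lower one.

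Importin alphas are the adaptors that read the classical nuclear localization signal and hand the cargo to importin beta. In both genotypes the order of the 6 genes was the same, with Kpna2 highest at 30.1 in Mfn1-/- and 28.9 in WT (log2 ratio 0.06). Kpna7, the oocyte and early embryo member of the family, was at 5.84 and 6.28 (−0.10), and Kpna3 at 1.85 and 1.99 (−0.10). Kpna6, at 0.466 and 0.37, Kpna4, at 0.1 and 0.0707, and Kpna1, at 0.0665 and 0.0385, had low levels and ratios of 0.27, 0.23 and 0.27. For Kpna4 and Kpna1 these ratios depend on the pseudocount: they were 0.50 and 0.79 without it and both 0.04 with a pseudocount of 1. The 3 abundant genes, Kpna2, Kpna7 and Kpna3, were within 0.11 of 0 on the log2 scale. Relative to the median of expressed genes all 3 of them were lower, with Kpna2 at −0.11, Kpna7 at −0.27 and Kpna3 at −0.26.

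Kpnb1, importin beta itself, was at 1.9 in Mfn1-/- and 1.82 in WT (log2 ratio 0.06), below the adaptors Kpna2 and Kpna7 on this scale. The other 12 genes of the importin beta family, which bind cargo without an adaptor or with a special one, averaged from 0.0498 to 1.08. Ipo8 was at 0.939 and 1.23 (−0.36) and Ipo4, a histone and ribosomal protein importer, at 1.05 and 0.701 (0.52). Ipo4 shares 2583 of its 4669 exon bases with the annotated gene Gm49378 on its own strand. Gm49378 is not listed, so which transcript those reads came from cannot be told. Ipo7 was at 0.212 and 0.118 (0.52), Ipo5 at 0.598 and 0.449 (0.35) and Ipo9 at 0.339 and 0.424 (−0.26). Tnpo1, the receptor of many RNA-binding proteins, was at 0.35 and 0.508 (−0.43), whereas Tnpo2 (0.173 and 0.139) and Tnpo3 (0.218 and 0.179), the importer of SR splicing factors, both had ratios of 0.19. The remaining members, Ipo13, Ipo11, Ranbp6 and Ranbp17, had log2 ratios of 0.29, 0.22, 0.39 and 0.02. Altogether 10 of the 13 were higher in Mfn1-/-, where 56.7% of all listed genes were. Relative to the median of expressed genes, 8 of the 13 were higher and 5 lower. Relative to expressed genes of like GC content, 6 were higher and 7 lower. The 2 over the minimum, Kpnb1 and Ipo8, lay under the median of expressed genes.

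Export receptors were low, with a median average of 0.127, and none reached the minimum average of 1. Xpo1 (CRM1), the receptor of leucine-rich nuclear export signals, led it at 0.858 in Mfn1-/- and 0.766 in WT (log2 ratio 0.15). Xpo5, which exports microRNA precursors, was at 0.212 and 0.227, Xpo6, the actin exporter, at 0.113 and 0.131, Xpo4 at 0.0999 and 0.154, and Xpo7 at 0.0891 and 0.107. Those 4 were lower in Mfn1-/-, by log2 ratios from −0.07 to −0.35, and only Xpo1 of the 5 lay above the median of all listed genes, 0.04. Against the median of expressed genes, 0.16, all 5 were lower, Xpo1 by 0.02. Xpo7 shares 39 exon bases with Npm2, an oocyte gene at 83.8 and 80.1 on the same strand.

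In the Ran cycle, Ran itself (chr5:129020069-129024323, plus strand) was the highest of the 58 members and equal to within 1.1-fold, at 47.3 in Mfn1-/- and 47.9 in WT (log2 ratio −0.02). Ranbp1, which helps strip Ran-GTP from receptors in the cytoplasm, was at 11.9 and 11.6 (0.04), and Ranbp3, a cofactor of Xpo1, at 1.31 and 1.32 (−0.01). The pair of enzymes that set the gradient were low: Rcc1, the chromatin-bound exchange factor that loads Ran with GTP, was at 0.661 and 0.345, and Rangap1, the cytoplasmic GTPase activator, at 0.157 and 0.184 (−0.14). Rcc1 (chr4:132331919-132353605, minus strand) had a ratio of 1.92 between the means, second to Nup62cl, and with the pseudocount the highest log2 ratio of the 58 members, 0.77. Its annotation overlaps that of Snhg3, a host gene of small nucleolar RNAs that shares 135 exon bases on the same strand and was at 0.245 and 0.166. The summed level of the 5 Ran cycle genes was 61.3 in both genotypes. Ranbp9 and Ranbp10, cytoplasmic scaffold proteins that carry a Ran-binding name, were at 0.926 and 1.18 and at 0.0612 and 0.0703 (log2 ratios −0.32 and −0.08), and Ranbp9 shares 453 exon bases with Nol7 on the opposite strand, at 4.03 and 3.92.

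Some of these levels depend on how reads were divided between a member and other genes. Exons of 24 of the 58 members overlapped those of another annotated gene, 19 with a gene on the opposite strand and 11 with one on the same strand, and some members have copies elsewhere in the genome, as retrotransposition of a messenger leaves. Copies were looked for, after the values had been seen, by aligning each member's principal transcript to all GENCODE transcripts. Members with a copy elsewhere of at least 95% identity and 500 bases, and a level of its own, were Kpna2, Nup35, Nup54, Ran and Tnpo1. For Kpna2 (chr11:106988629-106999541, minus strand), the gene Gm10184 (chr17:89908462-89910449, minus strand) matched at 99.9% over 1968 bases with 2 mismatches. It was listed at 775 in Mfn1-/- and 689 in WT (log2 ratio 0.17), 24.8 times the average of Kpna2. For Nup35 (chr2:80617236-80658906, plus strand), Gm4353 (chr7:116082863-116084635) matched at 99.6% over 1547 bases and was at 96.3 and 103 (−0.10), 29.7 times the average of Nup35.

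The stretches of 60 coding bases below show where each copy departs from its parent; capitals mark the bases that differ, and each pair shows places at which a read of the parent differs from a read of the copy. The sequences are from the GENCODE M21 transcripts on GRCm38, 5′ to 3′ in the sense of the messenger, and start at coding base 689 of Kpna2, 360 of Nup35, 1230 of Nup54 and 140 of Ran, counted from 1 at the first base of the start codon.
Kpna2: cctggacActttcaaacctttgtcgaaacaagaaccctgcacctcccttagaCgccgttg
Gm10184: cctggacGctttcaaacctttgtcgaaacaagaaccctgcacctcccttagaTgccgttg
Nup35: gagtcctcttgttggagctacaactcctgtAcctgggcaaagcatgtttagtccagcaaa
Gm4353: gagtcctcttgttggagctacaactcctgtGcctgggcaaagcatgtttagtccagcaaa
Nup54: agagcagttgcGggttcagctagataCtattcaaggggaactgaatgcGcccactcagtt
Gm15790: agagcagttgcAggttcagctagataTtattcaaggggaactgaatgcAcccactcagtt
Ran: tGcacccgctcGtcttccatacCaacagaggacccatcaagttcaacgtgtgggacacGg
Gm13461: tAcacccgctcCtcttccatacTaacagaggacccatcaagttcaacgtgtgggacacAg

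The Kpna2 stretch holds both of the mismatches found in the whole alignment with Gm10184. Of the 1980 windows of 75 bases, the length of 1 read, in the Kpna2 transcript, 1790 (90.4%) occurred unchanged in another gene, and so did 1154 of 1485 windows (77.7%) of Nup35. The share was 13.8% for Nup54, 12.9% for Ran and 9.6% for Tnpo1, and 50 of the 58 members, Kpna7 among them, had no such window. The level printed for Kpna2 or Nup35 is therefore that of the reads assigned to the parent, and how reads that align equally to parent and copy were counted is not given in the sources used here.

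Adding the copies of at least 95% identity, after rounding, to the parent changed the levels more than the ratios. Of the copies of Kpna2, Gm5832 reached 95% only by rounding. Kpna2 with 5 copies summed to 811.5 in Mfn1-/- and 722.8 in WT (log2 ratio 0.17, against 0.06 alone), of which Kpna2 itself was 3.85%. Nup35 with Gm4353 summed to 99.69 and 106.3 (−0.09, against 0.03 alone), so the sign of its small ratio turned. Nup54 with Gm15790, a processed pseudogene at 14.6 and 15.5, summed to 19.71 and 20.83 (−0.08). Ran with the processed pseudogene Gm13461, listed at 47.7 and 45.7 and hence level with Ran, summed to 95 and 93.6 (0.02). Tnpo1 with Gm6493, at 0.591 and 0.427, summed to 0.941 and 0.935 (0.01), against −0.43 for Tnpo1 alone. A further relative of Ran, the gene Rasl2-9 (chr7:5124938-5125950, 92.1% identity over 1020 bases), was at 6.76 in Mfn1-/- and 13.8 in WT (log2 ratio −1.02), past 2-fold where no member was with the pseudocount of 0.1. Of all expressed genes, 3.15% were lower past 2-fold. Rasl2-9 was under 95% identity and is not part of the sum given for Ran.

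**Figure D3:**
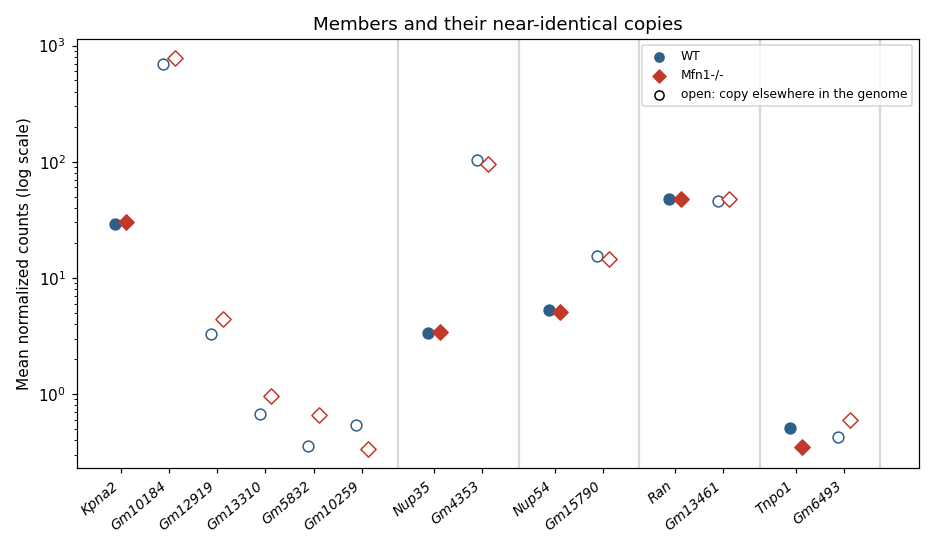
Mean normalized counts (log scale) of 5 members (filled) and of their copies of at least 95% identity, after rounding, over at least 500 bases elsewhere in the genome (open), in WT (blue circles) and Mfn1-/- (red diamonds). Gm10184 and Gm4353 lie 24.8 and 29.7 times above Kpna2 and Nup35, Gm13461 lies level with Ran, and the WT and Mfn1-/- points of Tnpo1 and Gm6493 stand in opposite order.

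Levels of members went with the exon bases of the gene, merged over its annotated transcripts. Of the 19 members with the fewest exon bases (1666 to 4575), 12 averaged at least 1, with a median of 3.35. Among the 20 of middle length (4669 to 8144) 6 did, with a median of 0.621, and among the 19 longest (8233 to 19005) 3 did, with a median of 0.165. Spearman's rho between exon bases and average was −0.53 over the 58 members, −0.76 over the 21 with an average of at least 1 and −0.36 over 4604 protein-coding genes with an average of at least 1. With the length of the principal transcript instead, rho was −0.455, −0.687 and −0.376. These are descriptions across genes that share libraries. Whether the authors divided by length is not stated, but the distance of the 1st percentile of values from the lowest value shrank with gene length, from 0.0024 for genes with a median of 465 exon bases to 0.0003 at 10927 bases in Mfn1-/-, so the levels appear to be on a per-length scale.

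**Figure D4:**
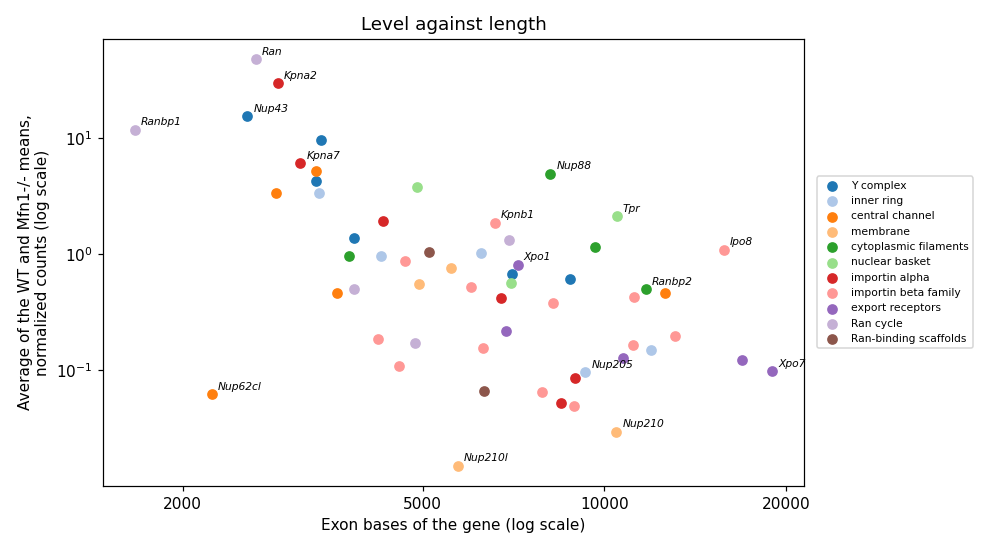
Average of the WT and Mfn1-/- mean normalized counts (log scale) of the 58 members against the exon bases of the gene (log scale), coloured by role. Ran, Kpna2, Nup43 and Ranbp1 sit at the short, high end and the export receptors Xpo6 and Xpo7 at the long, low end; Nup62cl is both short and low.

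Pore, envelope and export genes with names outside the rule were read from lists chosen by function. Of 36 other pore and envelope genes listed, 21 passed the minimum, 15 of them higher and 6 lower in Mfn1-/- with a median log2 ratio of 0.28, and 2 were higher past 1.5-fold, against 65.9% of expressed genes higher and 15.9% past 1.5-fold. Those 2 were Rcc2, a relative of Rcc1, at 3.64 and 1.87 (0.92), and Rangrf, a Ran-binding protein that releases its nucleotide, at 3.69 and 2.18 (0.73). Further nucleoporins were among the higher genes: Sec13 at 19.6 and 16.6 (0.24) and Seh1l at 4.37 and 2.94 (0.56), both of the Y complex, Rae1 at 10 and 8.09 (0.30) and Aaas at 9.11 and 6.59 (0.46). The 6 lower genes were Lmna (−0.49), Ankle2 (−0.31), Lbr (−0.14), Senp1 (−0.10), the pore protein Gle1 (−0.06) and Snupn (−0.01). Cse1l, which returns importin alpha to the cytoplasm, was at 1.66 and 1.35 (0.28), closer to Kpnb1 than to Kpna2 in level. Without the minimum, Lemd2, an inner nuclear membrane protein, passed 2-fold at 0.536 and 0.141 (1.40), where 4.87% of all listed genes were higher past 2-fold.

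Of 30 genes of messenger RNA export, 19 passed the minimum, 15 of them higher and 4 lower with a median log2 ratio of 0.19. Past 1.5-fold, 2 of the 19 were higher, against 15.9% of expressed genes. They were Thoc6, of the THO complex, at 10.9 and 6.8 (0.67), and Alyref, an adaptor of the export receptor, at 9.12 and 5.89 (0.62). Nxt2, a cofactor of that receptor, was past 2-fold at levels under the minimum, 0.737 and 0.248 (1.27). Without the minimum, 4.87% of all listed genes were higher past 2-fold. In the same list, Nxt1 was far higher at 62.8 and 54 (0.22), and Nxf1 was at 12.2 and 8.56 (0.51). No gene of either list over the minimum was past 2-fold, and both medians lay above the 0.16 of all expressed genes, whereas the median of the 21 members, 0.03, lay below it. These genes were named with their values known, and the difference between the lists was not tested.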

How the data were processed

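RNA-seq libraries of secondary follicle oocytes, 4 WT and 3 Mfn1-/-, were grouped by the sample labels; the series text gives 3 per group. Per the methods and the submitters' processing notes, Cutadapt, the FASTX-Toolkit and FastQC prepared the reads, STAR placed them on GRCm38 (mm10) and DESeq followed; versions, normalization and the strand setting of counting are not given in the sources used here. The authors deposited signal values, namely genotype means of normalized counts and a total over libraries. In 100% of genes that total lay within 1% of 3 Mfn1-/- and 4 WT means added up. Further columns hold the authors' own comparison (p-value, false discovery rate, ratio and fold change) and were not used. Depth per library is unknown, so no intervals are given.

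Log2 ratios of the means were computed with a pseudocount of 0.1, a minimum average of 1 and fold thresholds of 2 and 1.5 (Python 3.11.15, pandas 2.3.3, numpy 2.4.6), and the counting was tested on simulated data. Positions, lengths and overlaps came from GENCODE M21, in which all 58 members matched by name. Copies were found with blastn 2.17.0, over at least 75 bases at 95% identity or 500 bases at 90%. The rule gave values for members past 1.5-fold, the 10 highest, importin alphas, Kpnb1, Xpo1, Ran, Rcc1, Rangap1, Ranbp1, Ranbp2 and listed genes past 2-fold; other members are accounted for, and copies and other listed genes were named after their values were seen. Members and lists were chosen with earlier results of these data known. Other pseudocounts and minimums, subtraction of the median of expressed genes or of 20 GC bins, and leaving out members that share sequence were tried.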

Additional observations from a re-analysis of the deposited data

How the results depend on the processing

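The counts of members past 2-fold stayed at 0 in both directions under pseudocounts of 0.01, 1 and none, minimums of 0.1, 5 and none, after subtraction of medians and without members that share sequence, each changed alone. With no minimum, Nup62cl passed 2-fold at a pseudocount of 0.01 (log2 ratio 1.72) or none (2.09). The 1 member higher past 1.5-fold became 2 with a minimum average of 0.1 and 3 with none, and 0 with a minimum of 5, a pseudocount of 1, the median of expressed genes subtracted, the GC bin median subtracted, or members that share sequence left out, which kept 10 of the 21. The 0 lower past 1.5-fold became 1 (Nup214) with either median subtracted. Medians moved by over 0.1 on the log2 scale in these cases. With the median of expressed genes (0.16) subtracted, members went from 0.03 to −0.13, nucleoporins from 0.108 to −0.0558, import receptors from −0.10 to −0.26 and Ran cycle genes from −0.01 to −0.17, and 4 members were higher and 17 lower. With the GC bin median subtracted, nucleoporins went to −0.0278 and Ran cycle genes to −0.13, and 6 were higher and 15 lower. Import receptors went to 0.19 with a minimum of 0.1 and 0.19 with none, where 19 rather than 5 genes count in the latter. Of the 21 members named by rule, the sign turned in 9 and 8 under the 2 subtractions and in 0 under other pseudocounts. Export receptors had no median at the minimum of 1, since none of the 5 passed it. No paired analysis was possible because the table holds 1 mean per genotype and no value of a single library; for the same reason no replicate could be left out, and no depth limit can be stated.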

Other observations

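Markers of other cells of the ovary were low in both genotypes. The 4 theca and stroma markers listed summed to 0.15 in Mfn1-/- and 0.163 in WT, and Pecam1, the only blood and vessel marker listed, was at 0.168 and 0.188, while oocyte markers summed to 5120 and 4710.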
